A study of Homo sapiens with 26 samples.

Results

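Germline and cancer-testis genes were followed through the DNMT3B knockout, the ZBTB24 knockdown, the addition of FLAG-ZBTB24 and the binding maps of both factors in HCT116 cells, a human colorectal cancer line. The rule picked the genes by name and not by a measured value, but it was chosen with earlier results of these data known. The set comprised 106 of the 26313 gene symbols of the assembled annotation, on the hg19 build. All symbols that start with MAGEA, MAGEB, MAGEC, GAGE, PAGE, XAGE, SSX and a digit, CTAG or CT45 were taken, together with 12 single-copy germline genes. The naming rule also took 10 CTAGE genes and SSX2IP, which belong to families other than CTAG and SSX, and 95 members remained without them. Of these 11, CTAGE1 is itself known as a cancer-testis antigen.

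The RNA libraries came from wild-type HCT116 cells without tag or hairpin (1 library), an HCT116 line with a genetic DNMT3B knockout (1), cells with a non-targeting hairpin (3), cells with a hairpin against ZBTB24 (3), cells with the FLAG tag alone (2) and cells with FLAG-ZBTB24 (2). Binding was mapped by ChIP-seq with a FLAG antibody in 3 FLAG-ZBTB24, 2 FLAG-DNMT3B and 2 tag-only lines. Hairpin and FLAG lines were made with lentivirus and puromycin selection, and each FLAG line was grown from a single cell. The knockout and wild-type comparison had 1 library per group, so it has no replicate check and no test of the conditions. Every expression value is the authors' single FPKM value per group, so no standard deviation can be given, and the depth behind each value is unknown. The labels do not say whether the hairpin libraries were separate cultures, and the spread behind the authors' p-values may be technical. The tables list only part of the loci. For a member absent from a table, no change, a filter and no test cannot be told apart.

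Cancer-testis genes are normally active in the germ cells of the testis and silent in most other adult tissues, and many become active again in tumours. The MAGE, GAGE, PAGE, XAGE, SSX, CTAG and CT45 families lie in multi-copy clusters on the X chromosome. The single-copy germline genes act in meiosis and in the piRNA pathway, which silences transposons in germ cells. Promoter DNA methylation is a known means by which somatic cells keep such genes silent, and DNMT3B is a de novo DNA methyltransferase. ZBTB24 is a zinc finger protein, and mutations in either gene cause ICF syndrome.

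The targeted gene could not be checked directly. DNMT3B did not appear under the knockout's own label, and stood instead under a second label of the same table, DNMT3BKOshZB, with 21.1 FPKM for wild type and 6.46 FPKM for the other library in the authors' deposited table. That label matches none of the samples, its rows were all lower than wild type, and they are left out of all counts for the knockout. Where a value from them is given, the label is named. None of the 106 members stood under it, beside 4.50% of all symbols.

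In the single DNMT3B knockout library, 5 member loci were listed as higher than in wild type, holding 6 of the 106 symbols, and the other 100 symbols were not listed. A locus was listed there from a log2 fold change of 1, and all 2243 loci under the knockout's label were higher, so the shared direction of the members is a property of the list. That share of 5.66% of members lay below the 9.08% of all 26313 symbols listed as higher. Of the 83 members on X, 5 were listed (6.02%), beside 4.51% of all symbols on X, and of the 23 members on autosomes 1 was listed (4.35%), beside 9.33% of autosomal symbols. At a log2 fold change of at least 3, 5 member symbols (4.72%) remained, beside 2.94% of all symbols, and 4 of the 5 member loci, beside 33.4% of all listed loci. For X alone, 4 of 83 members (4.82%) reached that fold, beside 1.13% of symbols on X, but 2 of the 4 share a single locus. The share of members listed was thus no larger than that of all genes, and 4 of the 5 loci had large fold changes. The members were chosen with earlier results of these data known, which may raise their shares. Whether these shares differ was not tested.

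All 106 members stand in the assembled annotation by the rule, but the source marked for their transcripts differed by family. Of the 106 members, 61 (57.5%) had a transcript marked StringTie in that annotation, the assembler that the submitters' processing notes name, against 78.6% of all symbols. All 6 listed symbols carried that mark. Of the members with the mark, 9.84% were listed in the knockout, beside 11.3% of all symbols with it. The mark was present for 19 of 20 GAGE, 14 of 15 MAGEA and 5 of 6 PAGE genes, and for none of the 10 CT45 and 3 MAGEC genes. Among the 11 SSX genes, SSX1 alone carried it. No source used here says what the mark requires in reads.

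**Figure D1:**
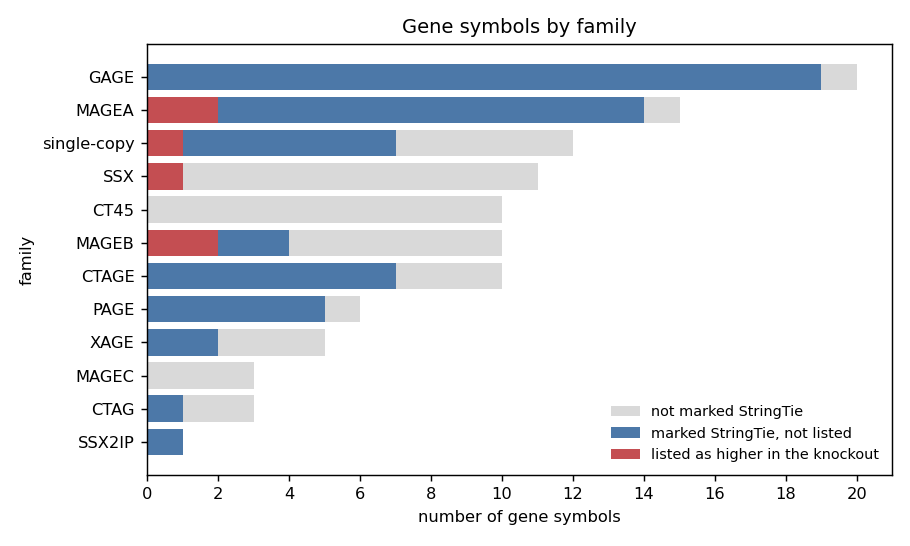
Horizontal bars give the number of gene symbols (x axis) in each family (y axis), split into symbols listed as higher in the DNMT3B knockout, symbols marked StringTie but not listed, and symbols not marked. The listed symbols are 2 MAGEA, 2 MAGEB, 1 SSX and 1 single-copy gene.

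MAEL had the largest difference of all members. It encodes maelstrom, a germ cell protein of the piRNA pathway. Wild-type cells had 0.0373 FPKM of MAEL against 25.1 FPKM in knockout cells, per the authors' deposited table, a log2 fold change of 9.39. Its locus spans chr1:166944819-166991449 (hg19, plus strand) and stood at rank 24 of the 2243 loci listed as higher, ordered by fold change. MAEL was the single listed gene of the 12 single-copy members. DAZL and DDX4, RNA-binding proteins of germ cells, SYCP3 and SYCE1 of the synaptonemal complex, the piRNA factors PIWIL1, PIWIL2 and TDRD9, and BRDT, SOHLH2, STK31 and TEX101 were not listed.

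The MAGE families gave 3 listed loci. The locus of MAGEB1 and MAGEB4, neighbours on 1 strand whose spans overlap, had 0.260 FPKM in wild-type and 26.7 FPKM in knockout cells, per the authors' deposited table, a log2 fold change of 6.69. The locus spans chrX:30260057-30270155, and its reads cannot be assigned to either gene. MAGEA6, a member of the MAGEA cluster near the end of the long arm of X, had 0.752 FPKM in wild-type and 12.6 FPKM in knockout cells, a log2 fold change of 4.07 per the authors' deposited table, at chrX:151867245-151870814. The MAGE proteins are tumour antigens, and several bind RING ubiquitin ligases. MAGEA8-AS1, a non-coding transcript antisense to MAGEA8, went from 0.135 FPKM in wild-type to 0.628 FPKM in knockout cells, a log2 difference of 2.22 per the authors' deposited table, so both of its values stayed under 1 FPKM. The locus, chrX:148958633-149025779, is wider than the annotated gene and covers MAGEA8 on the opposite strand, and MAGEA8 itself was not listed. The RNA kit keeps strand, but no source used here says whether the counting used strand, so reads of MAGEA8 and its antisense partner may not be separable.

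SSX1, at chrX:48114752-48126879, was the listed member of the SSX family, whose proteins repress transcription and form a fusion with SS18 in synovial sarcoma. Its level was 0.101 FPKM in wild-type and 8.58 FPKM in knockout cells, per the authors' deposited table, a log2 fold change of 6.41. All 20 GAGE, 6 PAGE, 5 XAGE, 10 CT45, 3 CTAG and 3 MAGEC genes were absent from the knockout rows. In all 5 listed loci the wild-type value was under 1 FPKM, and in 4 of them the knockout value was at least 1 FPKM. Among all 2243 loci listed as higher, 56.8% had a wild-type value under 1 FPKM and 86.0% a knockout value of at least 1 FPKM.

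**Figure D2:**
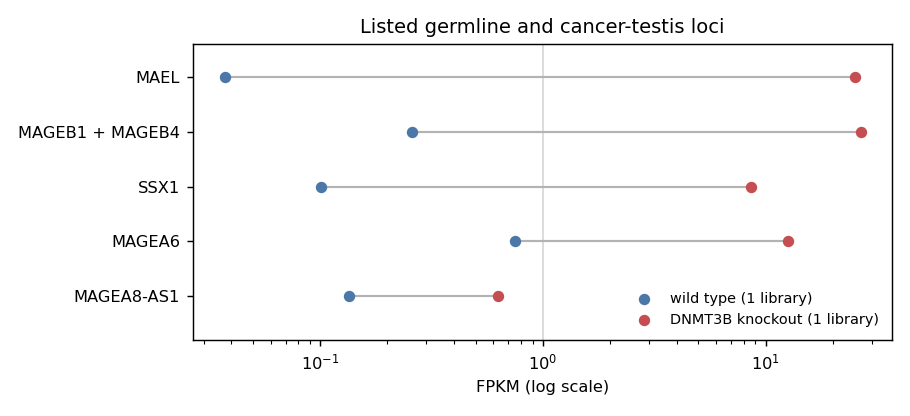
Points give the FPKM (log scale, x axis) of each of the 5 listed member loci (y axis) in the wild-type and the DNMT3B knockout library, joined by a line per locus. All wild-type points lie under 1 FPKM (grey line), and MAGEA8-AS1 stays under it in the knockout with 0.628 FPKM.

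The median log2 fold change of the 5 listed member loci was 6.41, against 2.12 for all 2243 loci listed as higher and 3.16 for the 1273 of those with a wild-type value under 1 FPKM. A fold change from so low a base depends on small values. With 1 FPKM added to both values, the log2 difference was 4.65 for MAEL, 4.46 for MAGEB1 and MAGEB4, 3.12 for SSX1, 2.96 for MAGEA6 and 0.52 for MAGEA8-AS1. The order of the 5 loci was the same on both scales. None of the 5 loci had a q under 0.05 in the authors' deposited table, made with Cufflinks per the submitters' processing notes. The q was 0.330 for MAGEB1 with MAGEB4, 0.342 for MAGEA6, 0.560 for MAEL, 0.617 for SSX1 and 0.975 for MAGEA8-AS1 in the authors' deposited table, and 2 of 5 (MAGEB1 with MAGEB4, and MAGEA6) had an unadjusted p under 0.05. Of all 2243 loci, 0.312% had a q under 0.05 and 9.36% an unadjusted p under 0.05. These p-values compare 2 libraries and not the conditions.

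**Figure D3:**
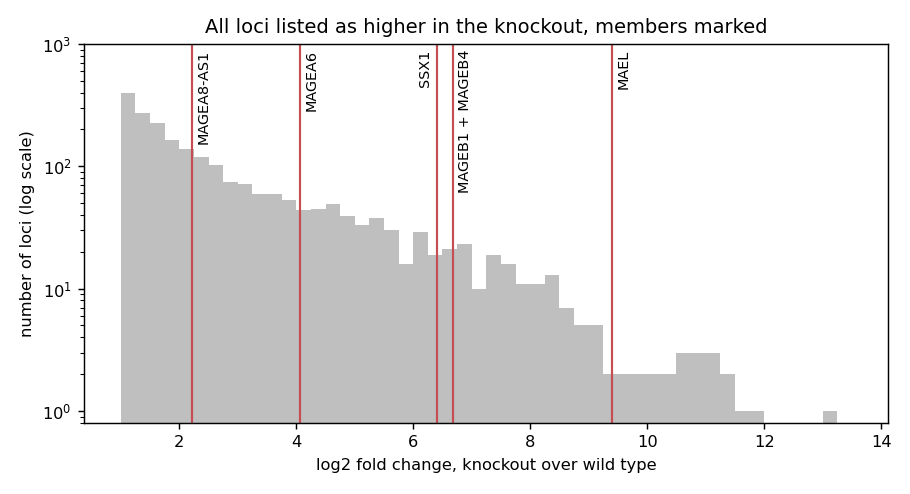
The histogram gives the number of loci (log scale, y axis) by log2 fold change of the DNMT3B knockout over wild type (x axis) for all 2243 loci listed as higher, and red lines mark the 5 member loci. MAEL at 9.39 lies far in the upper tail and MAGEA8-AS1 at 2.22 close to the median of 2.12.

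Promoter sequences are shown for the listed members because DNA methylation acts on CpG dinucleotides, which are written in capitals. Each run is the 250 bases before a transcript start in RefSeq, on GRCh38.p14, read 5′ to 3′ along the gene. MAEL has 2 starts in that table. Both of its windows lay above the median of 11 CpG dinucleotides over 35116 such windows, with 51 and 22.
MAEL, upstream start, chr1:166975332-166975581, plus strand: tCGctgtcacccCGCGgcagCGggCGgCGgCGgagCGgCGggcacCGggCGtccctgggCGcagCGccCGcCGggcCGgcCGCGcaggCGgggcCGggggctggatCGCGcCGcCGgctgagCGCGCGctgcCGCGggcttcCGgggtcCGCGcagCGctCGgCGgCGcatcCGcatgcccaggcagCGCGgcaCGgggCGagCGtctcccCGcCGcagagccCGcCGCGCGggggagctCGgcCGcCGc
MAEL, inner start, chr1:166989030-166989279, plus strand: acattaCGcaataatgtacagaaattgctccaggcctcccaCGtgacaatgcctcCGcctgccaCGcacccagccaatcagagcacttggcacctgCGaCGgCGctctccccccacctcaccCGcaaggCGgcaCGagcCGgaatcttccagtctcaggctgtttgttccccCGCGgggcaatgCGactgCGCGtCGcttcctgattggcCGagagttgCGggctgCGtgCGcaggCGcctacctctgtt

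The listed genes of the X chromosome had 1 to 15 CpG dinucleotides per window. MAGEB4 and the first start of MAGEB1 had 1 each, and the second start of MAGEB1 had 13. MAGEA6 had 15 and SSX1 had 3.
MAGEB4, chrX:30241750-30241999, plus strand: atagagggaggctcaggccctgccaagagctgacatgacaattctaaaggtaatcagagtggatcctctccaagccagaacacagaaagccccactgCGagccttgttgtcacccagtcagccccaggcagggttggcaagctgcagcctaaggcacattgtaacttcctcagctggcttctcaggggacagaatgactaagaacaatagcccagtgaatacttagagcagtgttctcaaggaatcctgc
MAGEB1, first start, chrX:30243481-30243730, plus strand: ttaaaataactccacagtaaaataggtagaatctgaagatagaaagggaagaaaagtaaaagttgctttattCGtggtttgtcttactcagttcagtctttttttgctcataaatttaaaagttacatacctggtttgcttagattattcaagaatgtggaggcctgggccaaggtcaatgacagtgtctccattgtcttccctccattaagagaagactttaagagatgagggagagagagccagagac
MAGEB1, second start, chrX:30246896-30247145, plus strand: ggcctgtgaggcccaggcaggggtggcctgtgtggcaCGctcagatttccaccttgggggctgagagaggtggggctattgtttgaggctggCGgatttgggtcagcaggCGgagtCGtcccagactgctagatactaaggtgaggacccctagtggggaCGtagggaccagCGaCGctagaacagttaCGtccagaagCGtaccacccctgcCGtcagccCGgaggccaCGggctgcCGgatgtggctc
MAGEA6, chrX:152769690-152769939, minus strand: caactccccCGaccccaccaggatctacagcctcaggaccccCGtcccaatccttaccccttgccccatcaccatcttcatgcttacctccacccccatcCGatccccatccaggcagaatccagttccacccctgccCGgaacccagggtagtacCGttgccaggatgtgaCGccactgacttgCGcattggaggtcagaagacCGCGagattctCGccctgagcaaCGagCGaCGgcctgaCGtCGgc
SSX1, chrX:48255142-48255391, plus strand: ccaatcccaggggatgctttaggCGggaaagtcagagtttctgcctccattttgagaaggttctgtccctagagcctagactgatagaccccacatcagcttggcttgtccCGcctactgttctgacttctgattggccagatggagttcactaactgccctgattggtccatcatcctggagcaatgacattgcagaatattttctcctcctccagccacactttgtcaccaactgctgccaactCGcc

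The members that shared the largest fold changes thus ranged from 1 to 51 CpG dinucleotides in these windows, with no common density. Of the 106 members, 74 were matched to the promoter table, with 98 windows between them, and MAGEA8-AS1 was not among them. Of the 74, 70 matched under their own symbol. The rest, CT45A6, GAGE4, GAGE7 and XAGE1E, matched under another member's symbol, and the shared windows are counted for both. Windows of the families on X had a median of 8 CpG dinucleotides and those of the single-copy genes 21. The windows of listed members had a median of 13 over 7 windows, and those of members not listed 8 over 91 windows. The windows of MAEL, with 51 and 22, are among the 7. Windows of all genes listed in the knockout had a median of 16 over 2352 windows, against 11 over all 35116 windows. A higher median was thus not particular to the listed members, and whether these medians differ was not tested. All windows on X had a median of 11.

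**Figure D4:**
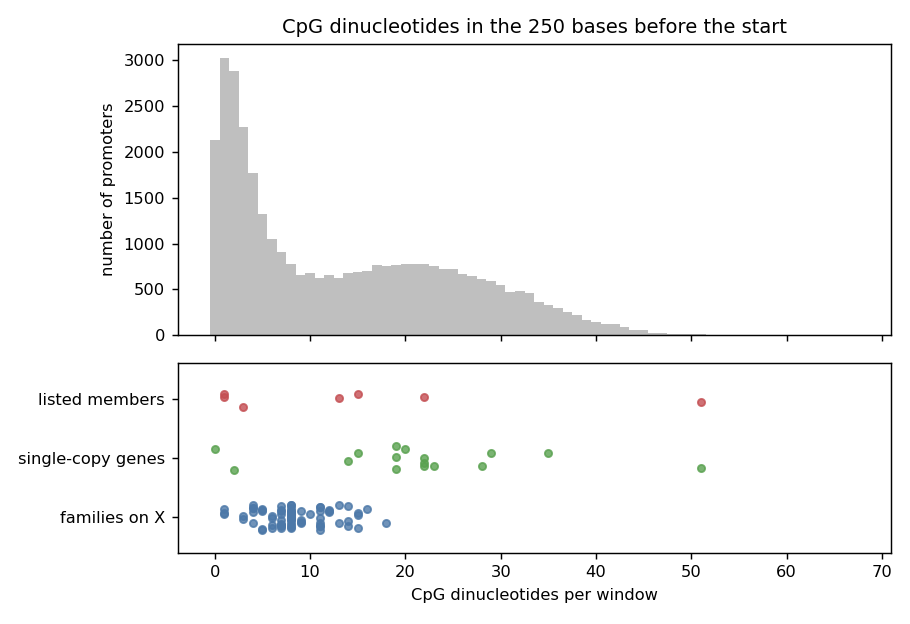
The upper panel gives the number of promoter windows (y axis) by their number of CpG dinucleotides (x axis) for all 35116 windows, and the lower panel gives 1 point per member window, for the families on X, the single-copy genes and the listed members. Points of listed members also stand in their own group, and points are spread vertically for visibility alone. The families on X lie at or under 18, while most single-copy windows lie above that value.

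MAGEA6 and MAGEA3 had identical 250-base windows, yet MAGEA3 was not listed. Near-identical copies share reads, so the values of MAGEA6 may hold reads of MAGEA3, and the assignment between them is uncertain. The same holds for MAGEA2 with MAGEA2B, MAGEA9 with MAGEA9B, SSX2 with SSX2B, 3 CTAGE genes and 9 GAGE symbols, which also had identical windows. XAGE1E, CT45A6, GAGE4 and GAGE7 were matched under the symbols XAGE1B, CT45A7, GAGE1 and GAGE12F. Each such pair is 1 entry read under 2 symbols, so the identity of its windows follows from the matching. None of these members was listed.

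Short motifs were searched on both strands of the windows. CACGTG, the E-box bound by MAX with MGA, a known repressor pair of germline genes, was found in 6 of 16 windows of single-copy members, from 5 genes (BRDT, DAZL, MAEL, STK31 and SYCE1), and in 6.34% of all windows. In MAEL it lay at the inner start, with its first base 211 bases before the start. MAEL was listed in the knockout and the other 4 were not. The motif was not limited to the single-copy genes, since 5 of 6 CTAGE windows, 5 of 7 PAGE windows and 1 of 11 XAGE windows also held it, and none of those genes was listed. These windows are not all separate sequences, so the counts can hold 1 site more than once. CTAGE4, CTAGE6 and CTAGE8 have identical windows, and the windows of BRDT overlap each other, as do those of PAGE4. GCGGGAA, a site of E2F6, was found in 6 of 8 SSX windows, from 5 genes, and in 5.52% of all windows. SSX1, SSX2, SSX2B, SSX4 and SSX5 held it, and SSX1 alone of these was listed. SSX2 and SSX2B share an identical window, and the windows of SSX2 overlap each other. CCGGAA, a site of ETS factors, was found in 3 of 7 windows of listed members, 2 of MAEL and 1 of MAGEA6, and in 14.5% of all windows. Members not listed held it in 5 of 91 windows, and MAGEA3, with the same window as MAGEA6, was 1 of these. Over all genes listed in the knockout, 12.7% of windows held it. Among the other germline genes followed below it was in 4 of 28 windows of listed genes and 17 of 110 of those not listed. CAGGACCT, a site reported for ZBTB24, was found in 3 of 98 member windows (MAGEA2, MAGEA4 and MAGEA12) and in 1.29% of all windows. No listed member held it in its window. The 4 motifs do not overlap each other in the windows shown.

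The neighbourhood of the listed loci was then examined, within 250 kb on either side. This step was chosen after the values were seen. Of 44 symbols near the 5 loci, 2 (4.55%) stood as higher for the knockout, beside 9.08% of all symbols. All of the 5 loci but MAEL lie on X, where 4.51% of symbols were listed. Many of the 44 are members already counted above as not listed. Beside MAEL, ILDR2 had 0.945 FPKM in wild-type and 2.27 FPKM in knockout cells, per the authors' deposited table, with a log2 fold change of 1.27, and the other 6 neighbours were not listed. Beside MAGEB1 and MAGEB4, neither MAGEB2 nor MAGEB3 was listed. Beside SSX1, the 6 neighbouring SSX genes were not listed, while SLC38A5, an amino acid transporter gene, stood under the label DNMT3BKOshZB with 30.9 FPKM for wild type against 0.884 FPKM, per the authors' deposited table. Beside MAGEA6, MAGEA2, MAGEA2B, MAGEA3 and MAGEA12 were not listed. CSAG3, a cancer-testis gene of that cluster, stood in 2 rows of the knockout table, at 2 different loci. At chrX:151903227-151928738 it had 0.564 and 1.64 FPKM under the knockout's label, per the authors' deposited table. At chrX:151876743-151883051 it had 10.6 and 3.27 FPKM with the label DNMT3BKOshZB, per the authors' deposited table.

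After ZBTB24 knockdown and with added FLAG-ZBTB24, 0 of the 106 members were listed. The tables did not list loci by 1 rule, so their counts and shares are not like for like. Knockout rows began at a log2 fold change of 1, while MBD2 was listed for the knockdown at 0.51. All 9 knockdown loci of the other germline genes followed below had an unadjusted p under 0.05, against 2 of their 22 knockout loci. Of all symbols, 8.04% were listed in the knockdown table, 0.984% as higher and 0.798% as lower with a q under 0.05. For FLAG-ZBTB24, 7.21% of all symbols were listed, with 0.0190% higher and 0.0228% lower at that q. With no row for any member in these tables of the authors, made with Cufflinks, there was no p-value to read for one, and the count at an unadjusted p under 0.05 is 0 by construction. No level of any member could be read for the hairpin and FLAG lines. ZBTB24, the target of the knockdown, was itself not listed in the knockdown table, so its loss could not be checked there.

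Neither factor had a peak at the promoter of a member, defined as a peak midpoint within 1000 bp of a transcript start. Over all symbols, 0.471% had a DNMT3B and 3.73% a ZBTB24 promoter peak, and on autosomes alone 0.494% and 3.91%. The authors' merged lists held 17 of 15909 DNMT3B peaks and 0 of 6173 ZBTB24 peaks on X, where 83 of the 106 members lie. No source used here says whether X was treated like the other chromosomes in peak calling, so the lists say little about binding at the X-linked families. The DNMT3B peak nearest to any member on X lay 343207 bp away, from XAGE3.

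Away from X, 2 of 23 members (8.70%) had a DNMT3B peak in the gene body, beside 23.9% of autosomal symbols. They were CTAGE5, a gene of secretory export from the endoplasmic reticulum, and SSX2IP, which encodes a centrosomal protein. SSX2IP held 4 such peaks, the widest at chr1:85123530-85127945 over an exon, and CTAGE5 held 1, at chr14:39768691-39770022, also over an exon (hg19). Thus 0 of the 12 single-copy germline genes held a DNMT3B peak. MAEL lay 109209 bp from the nearest DNMT3B peak and SYCP3, the closest of the 12, 6799 bp. ZBTB24 had 1 peak within a member, in an intron of STK31, a kinase gene of germ cells, at chr7:23827168-23827320. Its score of 7.58, as the authors give it, lay under the median of the list. The nearest ZBTB24 peak to MAEL lay 36686 bp outside the gene. Body peaks of ZBTB24 were found in 1 of 12 single-copy members (8.33%) and in 5.24% of autosomal symbols.

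Other germline genes, from a list of 131 annotated symbols that does not overlap the members, were also followed. In the knockout, 22 of 131 (16.8%) stood as higher in the authors' deposited table, beside 9.08% of all symbols, and their median log2 fold change was 3.85. The list was chosen with earlier results of these data known, which may raise its share. Whether that share differs from the share of all symbols was not tested. None had a q under 0.05 in that table, and 2 of 22 had an unadjusted p under 0.05. Genes of the piRNA pathway and of meiosis, to which MAEL and the synaptonemal members belong, were among them. TDRD12, a tudor domain protein of the piRNA pathway, had 0.0394 FPKM in wild-type and 13.1 FPKM in knockout cells, a log2 fold change of 8.38 per the authors' deposited table. The meiotic cohesin subunits REC8 (0.625 and 27.2 FPKM) and STAG3 (0.199 and 8.12 FPKM) were both listed in the authors' deposited table. TEX14, which acts at the bridges between germ cells, was at 0.481 and 47.0 FPKM, and MEI1, a gene of meiotic recombination, at 0.0594 and 1.32 FPKM, both per the authors' deposited table. CCDC36, which acts in meiotic double-strand break formation, had 0.0225 and 1.19 FPKM per the authors' deposited table. RBM46 (0.0665 and 8.21 FPKM) and LIN28B (0.0533 and 3.42 FPKM), RNA-binding proteins, were listed in the authors' deposited table. DPPA2, a gene of pluripotent and germ cells, was at 0.148 and 15.8 FPKM, and CABYR, a sperm tail gene, at 0.490 and 22.5 FPKM, per the authors' deposited table. These 10 genes were named for having the largest fold changes of the 22, which favours low wild-type and high knockout values. All 10 were under 1 FPKM in wild type and above it in the knockout, as were 4 of the 5 listed member loci, all but MAGEA8-AS1. Of all 2243 loci listed as higher, 56.8% were under 1 FPKM in wild type and 86.0% at least 1 FPKM in the knockout.

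**Figure D5:**
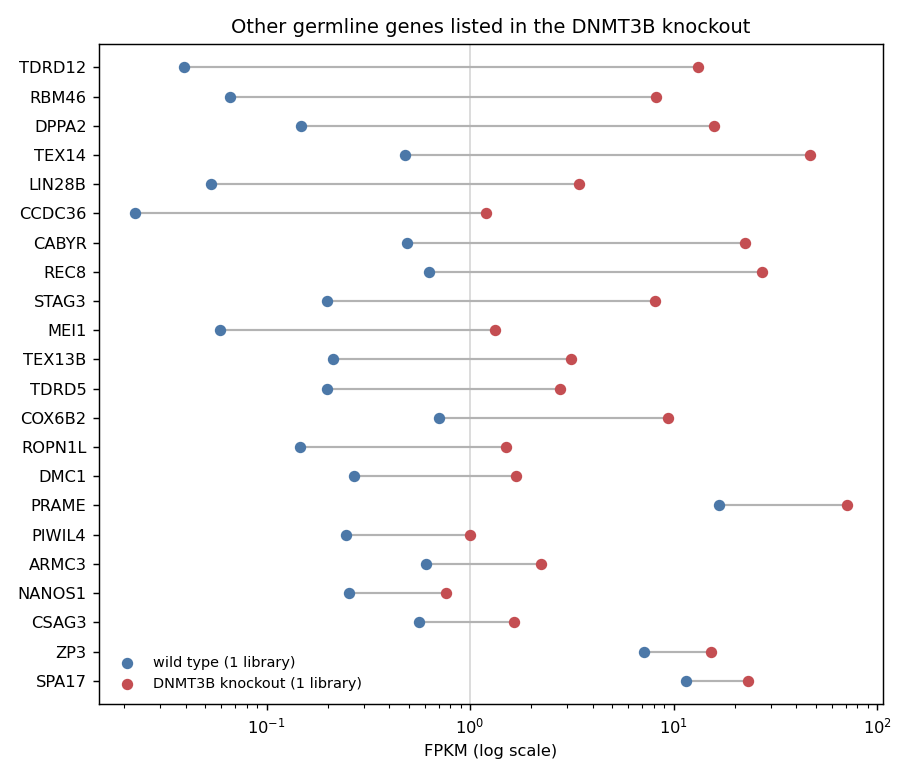
Points give the FPKM (log scale, x axis) in the wild-type and the DNMT3B knockout library for the 22 other germline genes listed as higher (y axis), ordered by fold change. Of these genes, 19 lie under 1 FPKM in wild type, and PRAME, ZP3 and SPA17 lie above it.

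The wild-type value was compared with the other controls at loci listed in more than 1 table. No member was listed in another table, so this could be seen only for other genes. DPPA2 was at 0.148 FPKM in wild type, at 19.6 FPKM with the non-targeting hairpin and at 8.13 FPKM with the tag alone in the authors' deposited tables. Its knockout value of 15.8 FPKM thus lay between these 2 controls. For COX6B2, a testis subunit of cytochrome c oxidase, the authors' deposited tables give 0.707 FPKM for wild type, 9.40 FPKM for the knockout and 7.65 FPKM for the non-targeting hairpin. TDRD5 had 0.197 and 0.220 FPKM in wild type and with that hairpin, against 2.77 FPKM for the knockout, per the authors' deposited tables. Of 360 loci listed both as higher for the knockout and in the knockdown table, 41 (11.4%) had a wild-type value under 0.1 times the non-targeting value, and 1 had one over 10 times it. These loci were selected for a wild-type value below the knockout's, which favours low wild-type values, so the imbalance is partly set by the selection. It is not known whether the tables were normalized together. The part of this in the members' differences was not tested.

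For the same 131 germline genes, 9 loci were listed after ZBTB24 knockdown, 2 higher and 7 lower, of which 0 and 3 had a q under 0.05, beside 12.2% and 9.82% of the 1965 listed loci. TEX19 fell from 11.6 to 5.59 FPKM (q = 0.0206), COX6B2 from 7.65 to 3.05 FPKM (q = 0.0285) and PLD6, a piRNA biogenesis gene, from 8.09 to 4.19 FPKM (q = 0.0352) in the authors' deposited table. TDRD5 and SPEF2, with log2 fold changes of 1.77 and 1.34 per the authors' deposited table, did not pass the threshold. DPPA2, ZP3 and the loci of MSH4 and of MSH5 had lower values that did not pass. With FLAG-ZBTB24, 11 loci were listed, 4 higher and 7 lower, and 0 of each had a q under 0.05 in the authors' deposited table, made with Cufflinks, beside 0.228% and 0.342% of all listed loci, while 1 and 3 had an unadjusted p under 0.05. TEX11 (0.932 and 0.0866 FPKM), ZFP42 (0.11 and 0.73 FPKM), TEX19 (8.74 and 1.97 FPKM), LY6K (0.864 and 0.232 FPKM) and DPPA2 (8.13 and 3.70 FPKM) had the largest differences in the authors' deposited table. CSAG3, TDRD6, SYCP2L, DMRT1 and MND1 followed, with log2 fold changes of -0.93, 0.90, 0.77, -0.76 and -0.62 in the authors' deposited table.

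Of 16 genes of DNA methylation, 1 (6.25%) was listed under the knockout's label, beside 9.08% of all symbols. DNMT3A, the other de novo methyltransferase, had 3.25 FPKM in wild-type and 8.47 FPKM in knockout cells, per the authors' deposited table. Besides DNMT3B itself, DNMT1, the maintenance methyltransferase (57.4 and 19.6 FPKM), and CDCA7, another ICF syndrome gene (36.9 and 13.3 FPKM), stood with the label DNMT3BKOshZB in the authors' deposited table. With DNMT3B, these 3 were 18.8% of the 16 genes, beside 4.50% of all symbols. TRIM28 (108 and 71.4 FPKM) and MBD2 (35.7 and 51.0 FPKM) did not pass the threshold for the knockdown, per the authors' deposited table. They were 12.5% of the 16 genes, beside 8.04% of all symbols. ZBTB24 stood with MICAL1 in a locus that rose with added FLAG-ZBTB24 from 17.8 to 155 FPKM, per the authors' deposited table (q = 0.0192). ZBTB24 was the 1 gene of the 16 listed there (6.25%), beside 7.21% of all symbols. Of 15 repressors of germline genes, TFDP1 and CBX3 (13.3%) were listed for the knockdown, beside 8.04% of all symbols. They were at 36.3 and 56.7 FPKM and at 70.1 and 100.2 FPKM per the authors' deposited table, with no q under 0.05. Under the label DNMT3BKOshZB, TFDP1 had 99.6 and 48.8 FPKM per the authors' deposited table. It was 6.67% of the 15 repressors, beside 4.50% of all symbols. Neither E2F6 nor MGA was listed in any table.

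Markers of other cell types were listed in the same table. Of 13 colon epithelium markers, CLDN3 and KRT20 (15.4%) were listed as higher under the knockout's label, beside 9.08% of all symbols. They summed to 10.8 FPKM for wild type and 28.9 FPKM for the knockout per the authors' deposited table. EPCAM, KRT8, KRT18, CDX2 and CDH1 (38.5%) stood as lower under the unmatched label DNMT3BKOshZB, beside 4.50% of all symbols. They summed to 1792 FPKM for wild type against 713 FPKM for the other library, per the authors' deposited table. Most of both sums came from KRT8 (839 and 297 FPKM) and KRT18 (739 and 329 FPKM), which that table places at the same locus. Of 13 markers of testis somatic cells, NR5A1, CYP11A1 and the locus of INSL3 and JAK3 (23.1%) were listed as higher, beside 9.08% of all symbols. They summed to 1.49 FPKM for wild type and 14.3 FPKM for the knockout per the authors' deposited table. The AMH locus (7.69%) stood as lower under the unmatched label, at 5.61 and 1.98 FPKM per the authors' deposited table, beside 4.50% of all symbols. Of 8 markers of blood, stroma and endothelium, VIM alone (12.5%) was listed, beside 9.08% of all symbols. VIM had 629 FPKM in knockout cells and a log2 fold change of 7.37 per the authors' deposited table. The remaining markers were not listed, so none could be read as 0. The part of these differences in the members' values was not tested.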

How the data were processed

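Values were taken from 3 expression tables, 2 merged peak lists and 1 assembled annotation. The FPKM values, 1 per group, and the log2 fold changes, p-values and q-values per locus are those the authors deposited, and the tools in the submitters' processing notes are MACS2, Cufflinks, StringTie and HISAT2, without versions, on hg19. The score of each peak is the one the authors deposited, whose kind no source here gives. No value per library was given, so no test was run, and depth per sample is unknown. Gene symbols of a locus were split on commas and matched to the assembled annotation. A locus was past the threshold with a q under 0.05. Knockout rows were used under the label DNMT3BKO alone. A body peak overlapped a transcript by at least 1 base and was no promoter peak. Promoter sequences came from RefSeq (GRCh38.p14), less the 50 bases after each start, and coordinates of the 2 builds were not compared. All members listed in a table were named, as were up to 10 other germline genes per table, by fold change. Promoters are shown for the listed members in the table, SSX1 having been added after its values were seen. The members and lists were chosen with earlier results of these data known. Alternatives covered the fold change, a minimum FPKM, pseudocounts, shared loci, row labels, peak scores and windows. Python 3.11.15 with pandas 2.3.3 was used, and the peak assignment was tested on simulated data.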

Additional observations from a re-analysis of the deposited data

How the results depend on the processing

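Members were at 0 in the knockdown and FLAG-ZBTB24 tables and for promoter peaks, so alternatives that only take part of these counts could not move them and say nothing of stability. With a q under 0.05, the 5 member loci of the knockout fell to 0 and the 22 other germline loci to 0. At a log2 fold change of at least 3, the other germline loci numbered 14, and the member loci 4. With promoters of up to 5000 bp, 2 members, CTAGE4 and CTAGE8 beside 1 shared peak, had a DNMT3B promoter peak instead of 0. With peaks above the list's median score, 1 member instead of 2 had a DNMT3B body peak and 0 instead of 1 a ZBTB24 body peak. Without the CTAGE genes and SSX2IP, chosen after seeing the data, 0 members had a DNMT3B body peak. These changes follow from fewer or more loci, genes or peaks being counted. No paired analysis was possible because the tables hold 1 pooled value per group, and for the same reason no replicate could be left out. Depth is unknown, so members under 1 FPKM in wild type, which all 5 listed loci were, cannot be given a detection limit.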

Other observations

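Other germline genes were also found in the rows with the unmatched label DNMT3BKOshZB. These were 6 loci of the 131 genes (4.58%), beside 4.50% of all symbols. SYCE3, a synaptonemal complex gene like the members SYCE1 and SYCP3, had 2.55 FPKM for wild type against 0.396 FPKM under that label, per the authors' deposited table. TEX19, which acts in germ cells and the placenta, had 1.13 and 0.480 FPKM there per the authors' deposited table. TEX19 was thus listed with a lower value in all 3 tables, in the knockout table under the unmatched label alone. Its q was 0.0206 for the knockdown and 0.109, not under 0.05, with FLAG-ZBTB24 in the authors' deposited tables, made with Cufflinks. The controls differed, at 11.6 FPKM with the non-targeting hairpin, 8.74 FPKM with the tag alone and 1.13 FPKM in wild type in the authors' deposited tables. The others were CSAG3, ATAD2, TSPYL1 and the locus of MSH4 with RABGGTB and small RNA genes. CSAG3 is also counted among the genes listed as higher, through its other locus. ATAD2 had 40.6 and 14.7 FPKM per the authors' deposited table.

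Among the other germline genes listed in the knockout, ZBTB24 peaks lay in the body of 4 of 20 on autosomes, beside 9.10% of all 2340 autosomal symbols listed as higher. LIN28B, RBM46, TDRD5 and ARMC3 held these peaks in introns, with scores of 8.85, 7.99, 6.61 and 6.07 as the authors give them. Of all 107 autosomal genes of the list, 10 (9.35%) held a ZBTB24 body peak. Whether these shares differ was not tested. SPA17 held the single ZBTB24 promoter peak (1 of 20), beside 4.66% of those 2340 symbols, with a score of 6.12 as the authors give it. ZP3 held the single DNMT3B body peak, beside 10.2% of those 2340 symbols.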
